A study of Mus musculus with 12 samples.

Results

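Hepcidin and the proteins that sense, carry, store and export iron are described here in the liver through 10 genes: Hamp, Hamp2, Bmp6, Id1, Hfe, Tfr2, Tfrc, Trf, Fth1 and Slc40a1. They were chosen by name and not by a rule on their values, though earlier results of these data were known. All 10 were found among the 15140 genes of the count table and passed the filter on low counts. The livers came from male mice, aged 7 to 8 weeks at the start, that ate a high-fat diet with 60 kcal% fat for 3 months. In 6 libraries the mice lacked prohibitin 1, a scaffold protein of the inner mitochondrial membrane, in adipocytes (Phb1adipo-/-, here KO), and in 6 they were wild type (WT). Both groups had the diet, so no library shows the liver on a standard diet. The deletion was made in fat cells and not in the liver cells sequenced, and the driver of the deletion is not named in the labels. Polyadenylated RNA was sequenced from whole liver. The labels do not say which library came from which animal, so p-values measure only the spread between these libraries, which may be technical.

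The body has no regulated route for excreting iron, and the liver sets the supply by secreting hepcidin. Hepcidin binds ferroportin, the iron exporter on gut cells, macrophages and hepatocytes, and causes its degradation, so that iron stays inside cells. Hepatocytes make hepcidin when BMP6 from sinusoidal endothelial cells signals through SMAD proteins, and interleukin 6 adds to this through STAT3. Inside cells a separate system acts on messenger RNA: when iron is scarce, iron regulatory proteins bind short hairpins, the iron-responsive elements, which protects the Tfrc message from decay and blocks translation of the Fth1 and Slc40a1 messages.

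None of the 10 genes passed the test between KO and WT, beside 2.64% of the 15000 genes tested (1.15% higher and 1.49% lower in KO). The test was edgeR's quasi-likelihood test with Benjamini-Hochberg adjustment at 0.05 over all genes tested. At an unadjusted p under 0.05 there were 2 of the 10, Hamp and Hamp2, beside 21.2% of all genes. DESeq2 called 1, Hamp2, beside 8.07%, and limma-voom called 0, beside 2.63%. In the authors' deposited table only Hamp2 of the 10, that is 1 gene, had an adjusted p under 0.05, beside 5.58% of its genes. The 10 genes had a median log2 fold change of -0.01, with 3 positive and 7 negative values, and all genes a median of 0.003. For 7 of the 10 the log2 fold change was within 0.25 of zero. No gene of the 10 had KO and WT libraries that did not overlap, beside 2.53% of all genes. Normalised levels are given as CPM, the counts of a gene relative to the scaled total of its library, and fold changes are KO over WT. In bulk liver a lower level may be fewer cells of a type or less RNA per cell, and the 2 cannot be told apart.

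**Figure D1:**
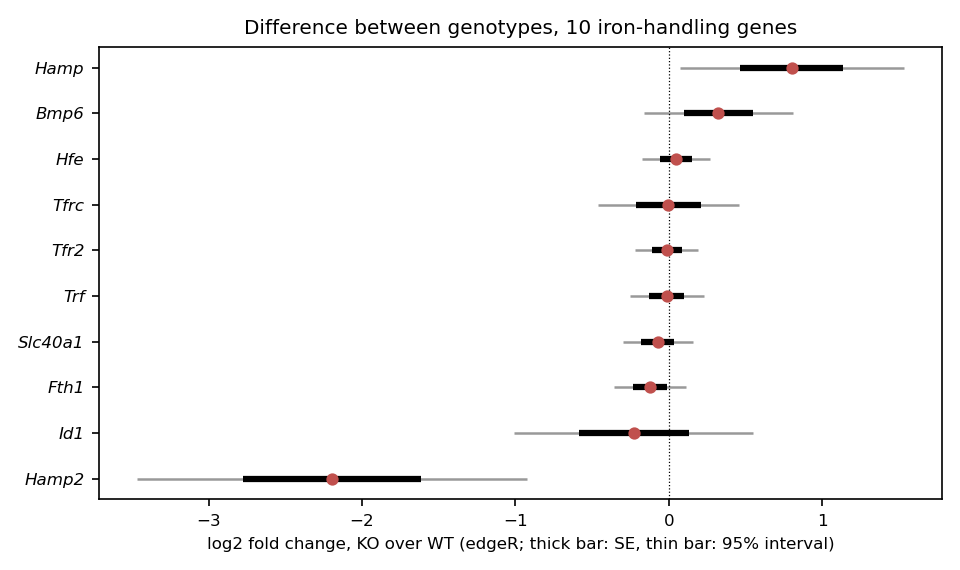
Log2 fold change, KO over WT, of the 10 iron genes from the edgeR fit of 6 KO and 6 WT libraries, with thick bars for the SE and thin bars for the unadjusted 95% confidence interval. Hamp lies to the right of zero at 0.80 and Hamp2 to the left at -2.19, 7 genes lie within 0.25 of zero, and none has an adjusted p under 0.05.

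Libraries held 34121087 to 37973022 counts for KO and 30348123 to 40828767 for WT. Phb, the gene of prohibitin 1, had a mean of 94.2 CPM in KO and 85.2 in WT livers (log2 fold change 0.15 ± 0.05 SE, adjusted p = 0.144 by edgeR's quasi-likelihood test), which checks nothing for a deletion in fat. Hepatocyte markers summed to between 80664 and 114759 CPM in all 12 libraries, with all 12 listed markers detected. WT libraries 2, 4 and 6 recur below because they held the extreme values of Hamp2 and Hamp.

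Hamp (ENSMUSG00000050440, GRCm38 chr7:30942368-30944032, minus strand) encodes hepcidin, the hormone itself. Hamp2 (ENSMUSG00000056978, chr7:30922372-30924681, minus strand) is a neighbouring copy whose peptide is not known for the iron-regulating activity of hepcidin. The copies share much of their sequence: their coding regions of 249 and 252 bases were 92.5% identical, with 19 differing columns of 252 in the alignment. Their longest identical run was 87 bases, in transcripts of 410 and 437 bases. How reads that match both genes were counted is not given in the sources used here, so the Hamp2 counts are uncertain to that extent. Exons of Hamp2, but not of Hamp, also overlap exons of Gm44662, a long noncoding RNA on the opposite strand that has no row in the table, and whether counting used strand is not given.

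The 250 bases before each start, from RefSeq on GRCm38.p6, are shown because the copies differ there at a site tied to BMP signalling. Hamp is at chr7:30944030-30944279 and Hamp2 at chr7:30924182-30924431, both on the minus strand. Starts here are those of RefSeq. The Hamp2 window lies wholly inside the gene span given above, which reaches chr7:30924681, so the 2 sources place the start of Hamp2 differently. The Hamp span ends at chr7:30944032, at the near edge of the Hamp window. The capitals mark, in order, GGCGCC, the core of the BMP-responsive element, or the 6 bases in its place in Hamp2, and a match to TTCNNNGAA, the core that STAT proteins bind.
Hamp: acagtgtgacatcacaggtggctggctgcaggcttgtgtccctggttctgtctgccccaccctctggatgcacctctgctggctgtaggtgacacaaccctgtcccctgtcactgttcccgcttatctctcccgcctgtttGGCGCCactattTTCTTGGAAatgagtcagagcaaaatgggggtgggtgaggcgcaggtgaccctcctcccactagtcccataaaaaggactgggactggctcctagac
Hamp2: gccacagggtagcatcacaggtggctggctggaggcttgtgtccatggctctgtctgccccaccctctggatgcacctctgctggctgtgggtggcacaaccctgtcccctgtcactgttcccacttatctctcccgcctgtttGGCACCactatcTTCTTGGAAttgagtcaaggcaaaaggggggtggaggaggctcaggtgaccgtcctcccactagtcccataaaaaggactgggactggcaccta
The windows were 89.7% identical, with 227 of 253 alignment columns the same and 20 substitutions. Substitution G145A, counted from 1 at the 5′ end of the Hamp window with the Hamp base first, fell inside GGCGCC, so Hamp2 had no match to it. The GGCGCC of Hamp began 109 bases before the start. TTCNNNGAA was present in both, 97 bases before the start in Hamp and 94 in Hamp2. Each motif reads the same on both strands, so 1 search covered both. Among 32851 RefSeq windows of the 250 bases before a start, 9.59% held GGCGCC and 7.02% held TTCNNNGAA. Of the 10 genes, 7 had an entry among these windows, and Slc40a1, Id1 and Trf did not. In the other 5 the motifs were absent from these windows except for 1 GGCGCC before 1 start of Tfrc.

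Hamp levels in KO libraries 1 to 6 were 456, 461, 908, 459, 705 and 717 CPM, and those in WT libraries 1 to 6 were 339, 228, 673, 313, 442 and 134 CPM. In 3 KO libraries Hamp stood above every WT library, and the other 3 lay above all WT libraries except library 3. Counts of Hamp ran from 3952 to 29553, so counting error was small beside this spread. Group means with their SD were 618 ± 189 CPM for KO and 355 ± 188 for WT (n = 6 each). The fitted difference was 1.74-fold higher in KO, a log2 fold change of 0.80 ± 0.34 (SE) with a 95% interval from 0.07 to 1.53. It did not pass the adjustment (adjusted p = 0.198 by edgeR's quasi-likelihood test), and an exact two-sided permutation test over all splits of 6 against 6 gave an unadjusted p = 0.0281. Of all genes tested, 1.69% had a log2 fold change as high as that of Hamp or higher. The authors' deposited table gave Hamp a log2 fold change of 0.81 with an adjusted p of 0.235.

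Hamp2 levels in KO libraries 1 to 6 were 1.28, 2.07, 2.00, 3.33, 1.67 and 2.10 CPM, and those in WT libraries 1 to 6 were 4.18, 22.9, 3.31, 18.3, 6.39 and 1.93 CPM. WT libraries 2 and 4 stood far above the other 10, WT library 6 lay among the KO libraries, and the groups overlapped. The coefficient of variation was 33.3% in KO and 93.0% in WT. Group means with their SD were 2.08 ± 0.69 CPM for KO and 9.49 ± 8.82 for WT (n = 6 each). The fitted log2 fold change was -2.19 ± 0.58 (SE), with a 95% interval from -3.46 to -0.93. It missed the threshold (adjusted p = 0.0667 by edgeR's quasi-likelihood test), while DESeq2 gave -2.20 with an adjusted p of 0.00562, and the authors' deposited table -2.18 with 0.00151. The exact permutation test gave an unadjusted p = 0.0195. In size, 28 of the 15000 genes, or 0.187%, Hamp2 included, had a log2 fold change at least as large in either direction. Without WT library 6 Hamp2 passed edgeR's threshold, at -2.40 with an adjusted p of 0.0282. Without WT libraries 2 and 4, an alternative chosen after their values were seen, the log2 fold change was -0.93 with an adjusted p of 0.294 by edgeR.

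The ratio within a library removes the scaling between libraries. Counts of Hamp2 made up 0.281%, 0.449%, 0.220%, 0.727%, 0.237% and 0.292% of the counts of Hamp in KO libraries 1 to 6. In WT libraries 1 to 6 the shares were 1.23%, 10.02%, 0.492%, 5.83%, 1.45% and 1.44%. All WT libraries except library 3 lay above every KO library. A lower Hamp count also raises this share. WT library 6, at 1.44%, held 57 counts of Hamp2 and 3952 of Hamp, the lowest Hamp count of all libraries. Counts of Hamp2 were 46 to 894 and those of Hamp at least 3952, so Hamp was the more abundant message of the pair in every library.

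The WT libraries with the highest Hamp2 were also highest in some, but not all, of the tested liver genes known to be higher in female mice. For this check, lists of female-biased and male-biased liver genes were added after the Hamp2 values were seen. Of the 14 female-biased genes listed 5 could be tested, and their summed level was 307 CPM in WT library 2 and 212 in WT library 4. In the other 10 libraries it was 6.76 to 101 CPM. Cyp2b9, a cytochrome P450 of this list, was at 198 and 138 CPM in WT libraries 2 and 4, and between 0.334 and 76.6 CPM elsewhere. Acot3, an acyl-CoA thioesterase, fell in KO (log2 fold change -4.00 ± 0.79 SE, adjusted p = 0.0273 by edgeR's quasi-likelihood test) and was also highest in WT libraries 2 and 4, at 98.2 and 65.6 CPM. These 2 genes made up most of the sum. Cux2, a repressor of male-biased genes, was highest there too, at 1.07 and 1.09 CPM with at most 0.861 elsewhere, while Cyp2b13 was highest in WT library 4 (3.89 CPM) but higher in WT library 5 (2.79) than in WT library 2 (2.20). Cyp2a4 did not follow, at 7.34 and 3.04 CPM in WT libraries 2 and 4, and was highest in WT library 3 (47.2) and KO library 6 (32.4). The summed male-biased genes were lowest in the same libraries, at 1965 and 2187 CPM, against 3874 to 10639 CPM in the other 10. Between genotypes, all 5 female-biased genes tested had negative log2 fold changes (median -2.37). Their summed level had a median of 12.2 CPM in KO and 81.8 in WT. All 10 male-biased genes had positive values (median 0.67), with median sums of 8351 CPM in KO and 4086 in WT. Both sums overlapped between the groups. By edgeR 1 of the 5 fell and 1 of the 10 rose, beside 2.64% of all genes called. All libraries are labelled male, and the part of these genes' shared variation in the Hamp2 result was not tested.

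**Figure D2:**
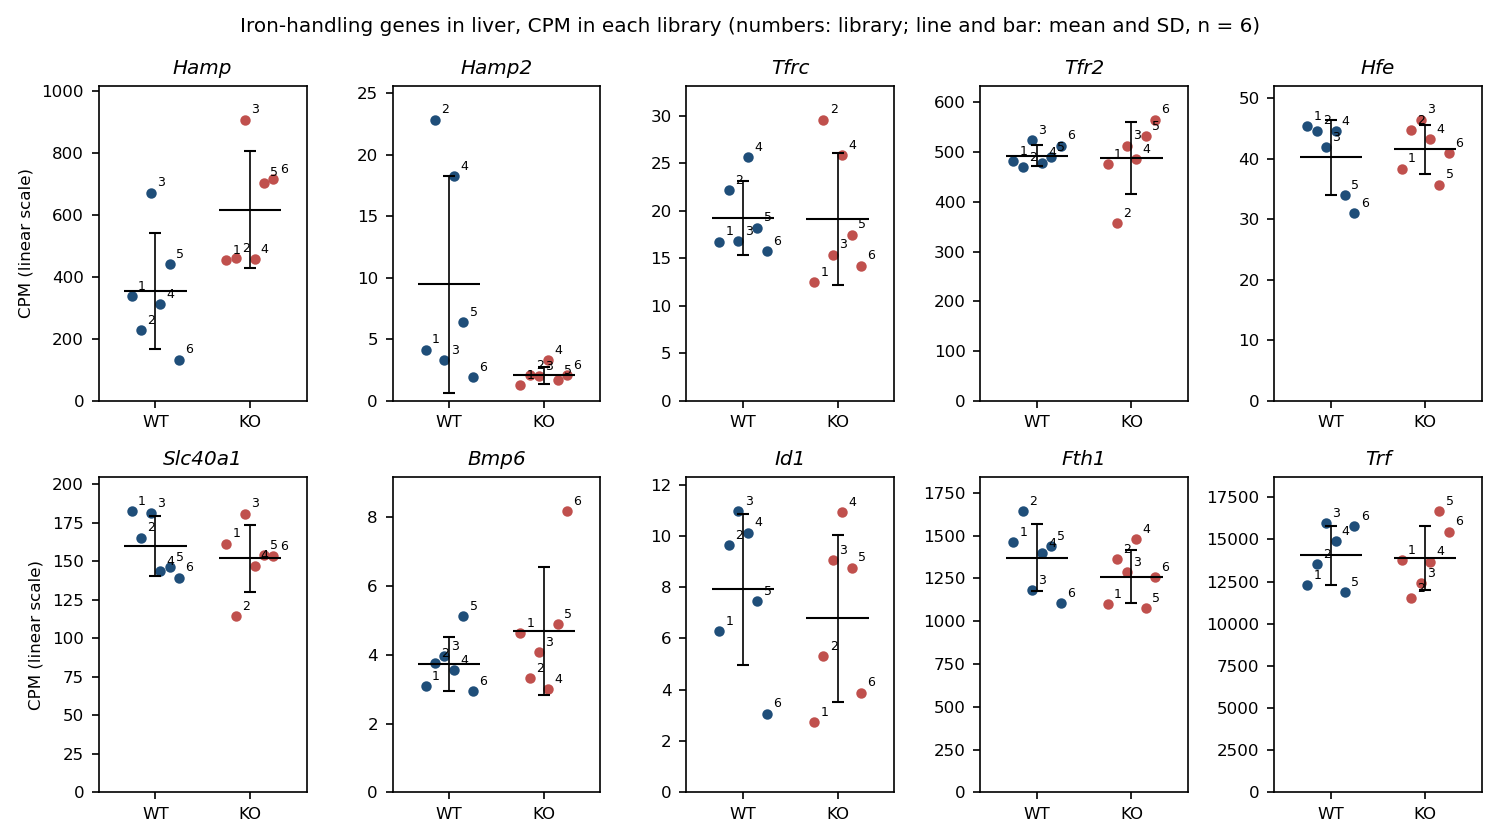
CPM of each of the 10 iron genes in the 6 KO and 6 WT libraries, each point 1 library with its replicate number, the horizontal line the group mean and the bar its SD. WT libraries 2 and 4 carry the high Hamp2 values of 22.9 and 18.3 CPM, WT library 6 has the lowest Hamp at 134 CPM, and the groups overlap in every panel.

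Bmp6 (ENSMUSG00000039004, chr13:38345107-38500302, plus strand) encodes the ligand that reports iron stores to hepatocytes. It was low, with a lowest, median and highest level of 3.01, 4.36 and 8.17 CPM in KO and 2.94, 3.65 and 5.12 CPM in WT. All but KO library 6 lay between 2.94 and 5.12 CPM. The log2 fold change was 0.32 ± 0.23 (SE), with a 95% interval from -0.17 to 0.81 and an adjusted p of 0.437 by edgeR's quasi-likelihood test. Without KO library 6 it was 0.08. An exon of Bmp6 overlaps Txndc5 on the opposite strand, which had 208 ± 29.9 CPM for KO and 184 ± 9.77 for WT (mean ± SD, n = 6 each), so some Bmp6 counts may be reads of Txndc5 if strand was not used. Markers of sinusoidal endothelium, the main source of Bmp6 in liver, had a median log2 fold change of -0.12 with 0 of 14 called, beside 2.64% of all genes. Their summed level was 355 to 506 CPM in KO and 364 to 502 in WT, and KO library 6, highest in Bmp6, was also highest in this sum. WT library 4 came next in the sum, at 502 CPM, but its Bmp6, 3.55 CPM, lay below the WT median. The part of these cells in the Bmp6 level was not tested.

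Id1 (ENSMUSG00000042745, chr2:152736251-152737410, plus strand) encodes an inhibitor of DNA binding and is a direct target of BMP-SMAD signalling in hepatocytes. Its lowest, median and highest levels were 2.73, 7.04 and 10.9 CPM in KO and 3.08, 8.54 and 10.96 CPM in WT. The groups covered nearly the same range, with KO libraries 1 and 6 and WT library 6 at the low end. The log2 fold change was -0.23 ± 0.36 (SE), with a 95% interval from -1.01 to 0.55 and an adjusted p of 0.760 by edgeR's quasi-likelihood test. A difference inside these bounds could not be told from none.

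Hfe (ENSMUSG00000006611, chr13:23702034-23710854, minus strand) encodes the membrane protein that is mutated in classical hereditary haemochromatosis. It lay between 35.7 and 46.5 CPM in KO, with a median of 42.1, and between 31.0 and 45.4 in WT, with a median of 43.3. The groups overlapped almost wholly, and the log2 fold change was 0.05 ± 0.10 (SE; 95% interval -0.17 to 0.27, adjusted p = 0.835 by edgeR).

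Tfr2 (ENSMUSG00000029716, chr5:137569840-137587481, plus strand) encodes transferrin receptor 2, the hepatocyte sensor of iron-loaded transferrin. In KO its lowest, median and highest levels were 358, 499 and 565 CPM, and in WT 469, 486 and 524 CPM. The WT libraries lay close together and KO library 2 stood below the other 11, so that the coefficient of variation was 14.7% in KO and 4.30% in WT. The log2 fold change was -0.01 ± 0.10 (SE; 95% interval -0.22 to 0.19, adjusted p = 0.952 by edgeR).

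The transferrin pair brings iron in. Trf (ENSMUSG00000032554, chr9:103204001-103230444, minus strand) encodes the iron carrier of plasma, and Tfrc (ENSMUSG00000022797, chr16:32608920-32632794, plus strand) the receptor that takes it up. Trf was among the most abundant messages, between 11511 and 16671 CPM for KO with a median of 13721, and between 11864 and 15952 for WT with a median of 14222. The groups overlapped almost wholly, and the log2 fold change was -0.01 ± 0.11 (SE; 95% interval -0.26 to 0.23, adjusted p = 0.960 by edgeR). Gm20425, an annotated gene on the same strand that shares exons with Trf, has no row in the table.

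Tfrc lay between 12.4 and 29.6 CPM in KO, with a median of 16.4, and between 15.8 and 25.6 in WT, with a median of 17.5. In each group libraries 2 and 4 were the highest. The log2 fold change was -0.004 ± 0.21 (SE; 95% interval -0.46 to 0.45, adjusted p = 0.995 by edgeR). Erythroid markers, which could come from red cell precursors rich in this receptor, had a median log2 fold change of 0.21. Of 12 listed, 0 of 8 tested were called, beside 2.64% of all genes. Their summed level was 202 to 501 CPM in KO and 171 to 331 in WT, and their part in Tfrc was not tested.

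Fth1 (ENSMUSG00000024661, chr19:9980598-9985098, plus strand) encodes the heavy chain of ferritin, the iron store, and Slc40a1 (ENSMUSG00000025993, chr1:45908068-45926523, minus strand) encodes ferroportin. Fth1 lay between 1076 and 1478 CPM in KO, with a median of 1270.4, and between 1107 and 1642 in WT, with a median of 1417. The log2 fold change was -0.12 ± 0.11 (SE; 95% interval -0.36 to 0.11, adjusted p = 0.559 by edgeR). Slc40a1 lay between 115 and 181 CPM in KO, with a median of 154, and between 139 and 183 in WT, with a median of 156. KO library 2 was the lowest and the groups otherwise overlapped, with a log2 fold change of -0.07 ± 0.11 (SE; 95% interval -0.30 to 0.16, adjusted p = 0.740 by edgeR).

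Kupffer cells, the liver macrophages that recycle iron from red cells, also express Slc40a1. Of 18 Kupffer cell and macrophage markers listed, Adgre1, Cd5l and Vsig4 fell, none rose and 15 did not pass edgeR's test, beside 2.64% of all genes called, and the median log2 fold change was -0.59. The largest fall of the 3 was that of Cd5l, a secreted macrophage protein (-1.10 ± 0.19 SE, adjusted p = 0.0194 by edgeR). The summed level of the list was 230 to 445 CPM in KO and 383 to 597 in WT, with no listed marker at 0 in its group mean. Their part in the Slc40a1 level was not tested.

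The message hairpins of these genes are shown because they set Tfrc apart from Fth1 and Slc40a1 in control by iron. A search of the UTRs of GENCODE M21 messages for a C, 5 bases, the loop CAGTGN and 5 bases pairing with the first 5 (G-U pairs allowed) found them in 160 of 21901 protein-coding genes, or 0.731%. Of the 10 genes 3 had a match, Fth1 and Slc40a1 in the 5′ UTR and Tfrc at 4 places in the 3′ UTR. The capitals mark the loop, and the sites are at chr19:9982733-9982759 (plus strand), chr1:45925466-45925492 (minus strand), and, on the plus strand of chr16, 32631220-32631246, 32631599-32631625, 32631664-32631690 and 32631711-32631737.
Fth1: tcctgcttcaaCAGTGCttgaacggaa
Slc40a1: aacttcagctaCAGTGTtagctaagtt
Tfrc site 1: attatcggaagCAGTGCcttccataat
Tfrc site 2: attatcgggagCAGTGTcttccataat
Tfrc site 3: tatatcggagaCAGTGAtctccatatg
Tfrc site 4: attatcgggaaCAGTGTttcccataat
A match is a description of sequence and not evidence that the site is bound. For Tfrc, whose message is stabilised by binding, the level was measured above, and for Fth1 and Slc40a1, whose translation is blocked, message levels do not show the amount of protein.

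Links between the genes were examined across the 12 libraries for 6 pairs, on log2 CPM. Pearson's r and Spearman's rho were tested by permutation with Benjamini-Hochberg adjustment over the 6 pairs, and none passed. Hamp and its signal Bmp6 had r = 0.56 and rho = 0.55 (permutation p = 0.0632 and 0.0668, adjusted p = 0.190 and 0.200), with r = 0.49 within KO, 0.62 within WT and 0.50 without the 2 libraries farthest from the median of Hamp. Hamp and Id1, both targets of that signal, had r = 0.28 and rho = 0.10 (permutation p = 0.381 and 0.752, adjusted p = 0.503 and 0.752), with 0.30 within KO, 0.73 within WT and 0.06 without WT libraries 6 and 2. The pooled value for Hamp and Id1 rested on WT library 6: r was -0.084 without it and 0.41 without WT library 2.

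Bmp6 and Id1 had r = -0.22 and rho = -0.13 (permutation p = 0.503 and 0.684, adjusted p = 0.503 and 0.752), with opposite signs within KO, -0.51, and within WT, 0.53, and 0.05 without the 2 libraries farthest from the median of Bmp6. Hamp and Hamp2 had r = -0.40 and rho = -0.43 (permutation p = 0.192 and 0.160, adjusted p = 0.383 and 0.240), but -0.10 within KO and 0.03 within WT, and -0.63 without WT libraries 6 and 2. The pooled relation did not hold within either genotype. Hamp and Tfr2 had r = 0.21 and rho = 0.48 (permutation p = 0.496 and 0.115, adjusted p = 0.503 and 0.229), with 0.63 within KO, 0.20 within WT and 0.46 without the same libraries.

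Tfrc and Fth1, whose messages are under opposite control by iron regulatory proteins, had r = 0.61 and rho = 0.57 (permutation p = 0.0389 and 0.0592, adjusted p = 0.190 and 0.200). The sign was positive within KO, 0.71, within WT, 0.58, and without KO libraries 2 and 4, 0.62. Libraries with more Tfrc thus tended to hold more Fth1 message, without passing the adjustment.

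**Figure D3:**
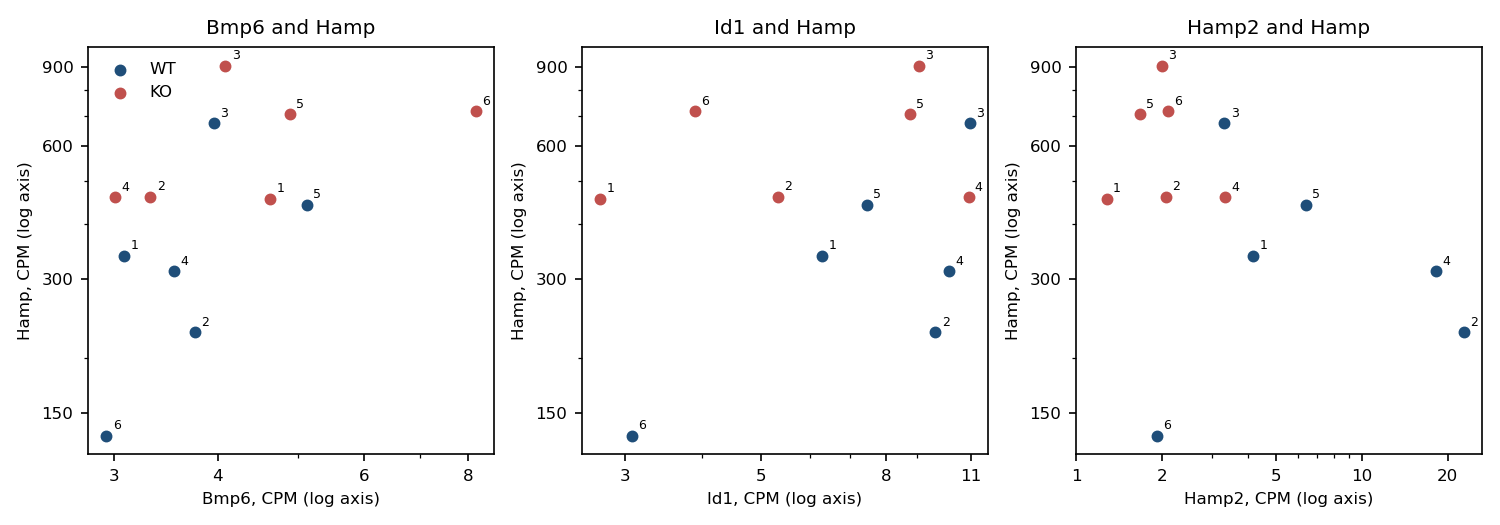
CPM of Hamp against that of Bmp6, Id1 and Hamp2 in 3 panels with log axes, each point 1 of the 12 libraries, coloured by genotype and numbered by replicate. Hamp and Hamp2 have a pooled r of -0.40 but -0.10 within KO and 0.03 within WT, and Hamp and Bmp6 have 0.56.

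The genes whose pattern over the 12 libraries was most like that of Hamp, Id1 and Tfrc were taken from the 12881 genes averaging 1 CPM or more, by Pearson's r of log2 CPM, as a description. All values share the same 12 libraries and their scaling. The 5 most like Hamp were Tmem120b, with r = 0.94, and Aifm1, Pdcd2l, Wwox and Tmem128, with r between 0.88 and 0.91. Aifm1 encodes the apoptosis-inducing factor of mitochondria and Wwox an oxidoreductase with WW domains. The r of Tmem120b was 0.78 within KO and 0.94 within WT.

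The gene most like Id1 was Glrx5, a mitochondrial glutaredoxin that passes on iron-sulfur clusters. It had r = 0.97 over all libraries and 0.98 within each group. Glrx5 ran from 87.5 CPM in WT library 6 to 107 in WT library 4, a narrow range beside that of Id1, and Id1 was low in the same libraries, KO 1, KO 6 and WT 6. The next named genes were Slc25a29, a mitochondrial carrier of basic amino acids (r = 0.86), and Bri3 (r = 0.85), and the other 2 were predicted genes. The 5 most like Tfrc were Fkbp5, a glucocorticoid-induced chaperone partner (r = 0.86), Cln8 (0.86), G6pc3, a glucose-6-phosphatase (0.85), C3ar1, a complement receptor (0.85), and Nr1i2, the pregnane X receptor (0.84).

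Levels of different genes were compared per length, as mean CPM per kb of exon over the 12 libraries. Trf led at 4212 CPM per kb, followed by Hamp at 1186 and Fth1 at 379, then Tfr2 at 113, Slc40a1 at 17.3, Hfe at 11.5, Hamp2 at 9.92, Id1 at 6.34, Tfrc at 3.10 and Bmp6 at 1.08. The range over libraries separated Trf from Hamp, Fth1 from Tfr2 and Tfr2 from Slc40a1, while the ranges of every other pair of neighbours overlapped. In WT alone Hamp2 averaged 16.3 ± 15.1 CPM per kb and in KO 3.56 ± 1.18 (SD, n = 6 each). The lengths matter: with the principal transcript in place of all merged exons, an alternative chosen after the values were seen, Fth1 reached 880 and Slc40a1 46.3 CPM per kb, and Hamp2 moved ahead of Hfe. Of the receptors for the plasma carrier, Tfr2 was the more abundant message in every library per length, with non-overlapping ranges of 82.4 to 130 CPM per kb for Tfr2 and 2.01 to 4.78 for Tfrc.

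**Figure D4:**
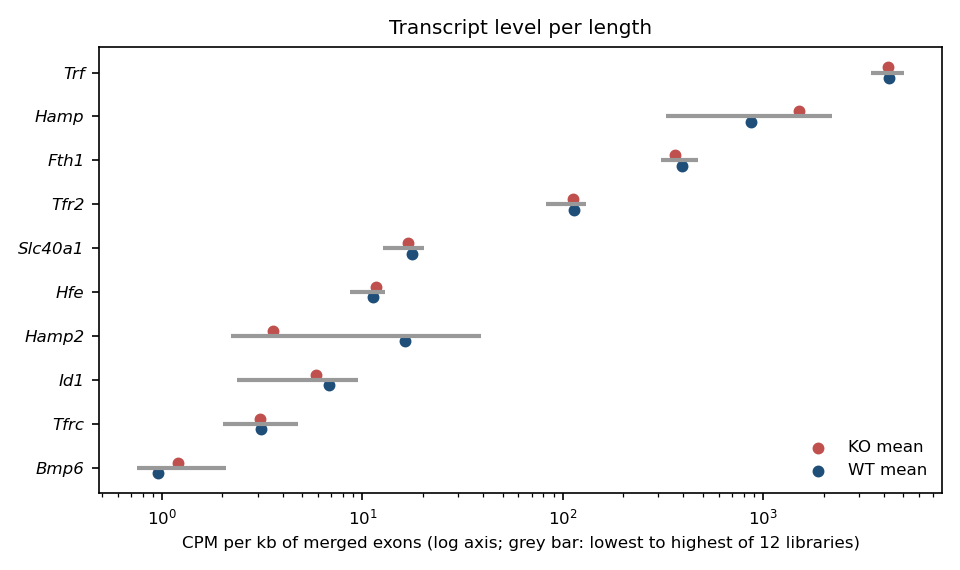
CPM per kb of merged exon of the 10 iron genes on a log axis, ordered by the mean over the 12 libraries, with points for the KO and WT group means and a grey bar from the lowest to the highest library. Trf is highest with a mean of 4212 and Bmp6 lowest with 1.08, and the bar of Hamp2 is the longest on this axis.

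Around the 10 genes, 7 lists of other iron genes held 120 genes, of which 112 could be tested. By edgeR's quasi-likelihood test 0 of the 112 were called, beside 2.64% of all genes, and their median log2 fold change was -0.0054. At an unadjusted p under 0.05 there were 5 BMP-SMAD genes of 23, 4 IL-6 and acute phase genes of 22, 4 uptake genes of 12, 5 storage and export genes of 11, 1 iron sensing gene of 9, 4 mitochondrial genes of 20 and 3 heme genes of 15, beside 21.2% of all genes. DESeq2 called 10 of the 112, beside 8.07% of all genes. Both counts are near the share of all genes and are no result about the iron lists. Among the 10 were Id3, Fst, Orm3, Cd163, Flvcr2, Lrp1, Cp, Abcg2 and Clpx.

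In the BMP-SMAD list the median log2 fold change was 0.004. Id3, a relative of Id1 and likewise a BMP target, had levels in KO libraries 1 to 6 of 48.1, 36.2, 89.2, 67.7, 151 and 94.7 CPM, and in WT libraries 1 to 6 of 42.7, 28.5, 47.8, 33.8, 37.1 and 28.2 CPM. In 5 KO libraries Id3 stood above every WT library. Its log2 fold change was 1.16 ± 0.30 (SE) with an adjusted p of 0.0642 by edgeR's quasi-likelihood test, against -0.23 for Id1. Without KO library 2 Id3 passed, at 1.31 with an adjusted p of 0.0408 by edgeR. Fst, follistatin, a binder of activins, had 1.67 ± 0.55 (SE), and Bmpr1a, the type I BMP receptor of hepatocytes, had -0.20 ± 0.07 (SE). Neither passed edgeR's threshold, with adjusted p of 0.113 and 0.123.

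The IL-6 and acute phase list had a median log2 fold change of -0.22. Its genes of smallest p were Jak2, a kinase of the receptor (-0.20 ± 0.07 SE), Creb3l3, the stress-activated factor CREBH (-0.23 ± 0.09 SE), and Orm3, an orosomucoid (-1.61 ± 0.52 SE), with adjusted p between 0.107 and 0.172 by edgeR. Orm3 passed without WT library 3, with an adjusted p of 0.0369. WT library 6, lowest in Hamp, was the highest of the 12 in the acute phase protein Saa1, at 572 CPM, while the other 11 ranged from 24.1 to 322. The summed list was 23491 CPM in WT library 6 and 12148 to 17326 CPM in the other 11. Not all listed genes were high in WT library 6. Socs3 was at 8.68 CPM there, beside a WT median of 8.57, and Il6ra at 51.1 CPM, beside a WT median of 77.4. Without WT library 6 the list's median log2 fold change was -0.02, and the direction of Hamp was the same without any single library. With a library left out, the log2 fold change of Hamp ran from 0.63 to 1.085. Over all alternative fits, by edgeR, DESeq2 or limma-voom, its adjusted p ran from 0.0738 to 0.508.

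Iron uptake genes had a median log2 fold change of 0.05, with the lowest p in Flvcr2, a transporter of the FLVCR family (-0.67 ± 0.19 SE), Lrp1, the hepatocyte receptor that also takes up heme bound to hemopexin (-0.34 ± 0.10 SE), and Cd163, the macrophage receptor for hemoglobin with haptoglobin (-0.71 ± 0.22 SE). Their adjusted p ran from 0.0693 to 0.102 by edgeR. Flvcr2 passed without WT library 3 or 6, with adjusted p of 0.0425 and 0.0450. Cd163 is also a macrophage gene, and its mean was 9.27 CPM in KO and 15.1 in WT, beside the Kupffer marker values above. In the storage and export list the median was 0.06, with Abcg2, an exporter of porphyrins, at 0.54 ± 0.16 (SE), Cp, ceruloplasmin, the ferroxidase of plasma, at 0.22 ± 0.08, and Pcbp2, an iron chaperone, at -0.19 ± 0.07. Their adjusted p lay between 0.0875 and 0.143 by edgeR. Cp passed without WT library 6, with an adjusted p of 0.0460.

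The sensing list had a median log2 fold change of -0.03. Of its genes, Ireb2, which encodes iron regulatory protein 2, had -0.19 ± 0.10 (SE), Vhl 0.29 ± 0.11 and Epas1, the hypoxia factor HIF-2 alpha, -0.11 ± 0.11, with adjusted p between 0.166 and 0.606 by edgeR. In the mitochondrial list, with a median of -0.02, Iscu, the cluster scaffold, had 0.18 ± 0.07 and Hscb, its co-chaperone, -0.41 ± 0.15 (SE), neither past edgeR's threshold. In the heme list, with a median of 0.05, Clpx, a mitochondrial unfoldase that acts on the first enzyme of heme synthesis, was at 155 to 262 CPM in KO and 94.3 to 179 in WT, 0.72 ± 0.18 (SE, adjusted p = 0.0556). Clpx passed edgeR's threshold without KO library 3, WT library 1 or WT library 6, with adjusted p of 0.0438, 0.0499 and 0.0256. Urod, a decarboxylase of the pathway, had 0.13 ± 0.06 and Hmox1, which breaks heme down, -0.53 ± 0.23 (SE).

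**Figure D5:**
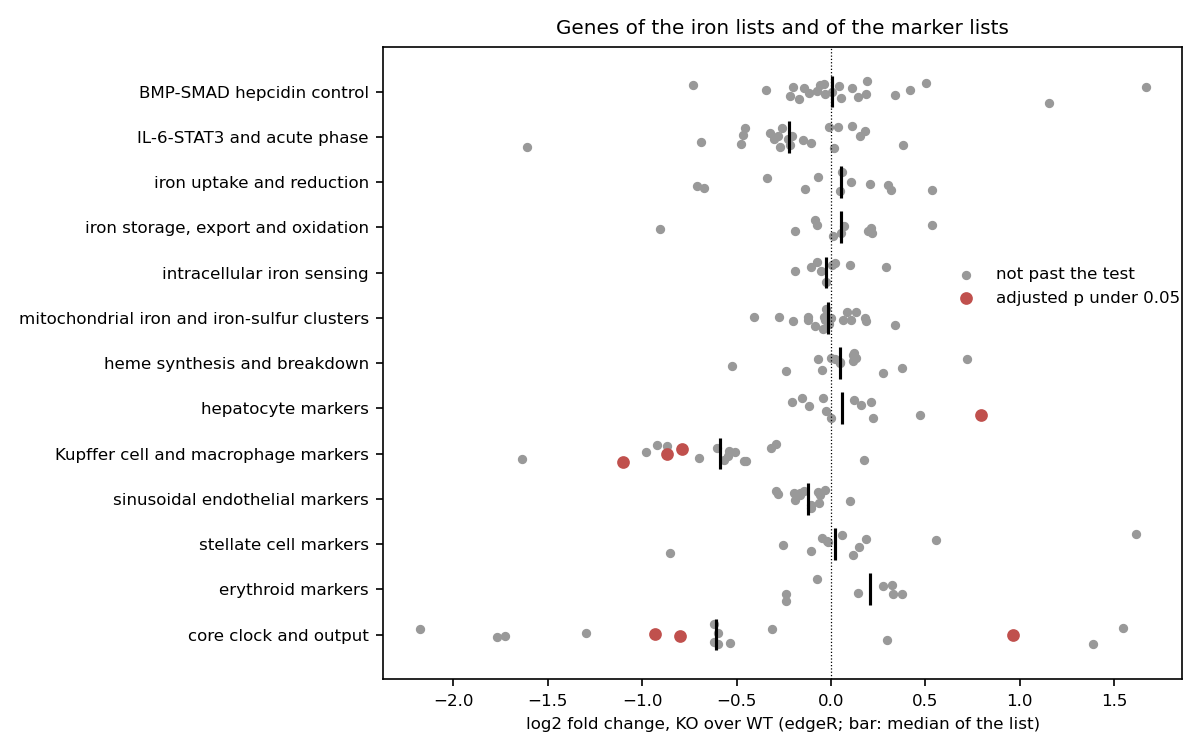
Log2 fold change, KO over WT, of each tested gene of the iron lists and of the marker lists, each point 1 gene, with the line of a list at its median and called genes in red. No gene of the 7 iron lists is called, and the Kupffer list has its median at -0.59 with 3 genes called lower, beside 2.64% of all genes called.

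Of the other marker lists, 1 of 12 hepatocyte genes rose, Tat, the tyrosine aminotransferase (0.80 ± 0.14 SE, adjusted p = 0.0176 by edgeR). Of 12 stellate genes 0 were called. Both counts stand beside 2.64% of all genes called. Of 16 core clock and output genes, Cry1 rose, Tef and Hlf fell and 13 did not pass, beside 2.64% of all genes called. Their median log2 fold change was -0.61, with 4 positive and 12 negative values, from -2.18 to 1.55. Summed levels were 480 to 728 CPM in KO against 739 to 1146 in WT. Tfrc is known to vary with time of day in mice, the labels give no time of collection, and the part of the clock genes in the levels of the iron genes was not tested.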

How the data were processed

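Polyadenylated liver RNA of 6 KO and 6 WT libraries was analysed, with groups and replicate numbers from the sample titles. The deposited table held raw counts per gene, and the authors' own log2 fold change, test score, p-value and adjusted p-value, per the file headers. A mean normalised count, a signal value deposited by the authors per the file headers, was not used. The submitters' processing notes name FastQC, Trimmomatic, HISAT2, SAMtools, featureCounts and DESeq2, with GRCm38 as the build. Not given in the sources used here are versions, annotation, strand setting and the treatment of shared reads.

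Of 15344 rows, 204 repeats with identical counts were left out, leaving 15140 genes, 15127 of them with a GENCODE M21 name. Each of the 30 pairs of libraries of 1 group differed beyond sampling noise, with a chi-square of 38.1 to 242 per degree of freedom. edgeR 4.0.16 (R 4.3.3) fitted all 12 libraries (TMM, filterByExpr, robust quasi-likelihood test, 2-sided, Benjamini-Hochberg, threshold 0.05), and kept 15000 genes. The SE was the unshrunken log2 fold change divided by the square root of F. On simulated counts of KO against WT (15001 genes tested) it recovered 38.8%, 83.6% and 95.5% of planted 1.5-, 2- and 4-fold changes, with 6.45% false calls. Exact permutation tests cannot go below p = 0.00216. Log2 CPM used a prior count of 2, and correlations 100000 permutations.

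The members and lists were chosen with earlier results of these data known. All 10 genes are named, with, for each iron list, the called genes (up to 6) and up to 3 others of smallest p. For the marker and clock lists the called genes are named, and for Hamp, Id1 and Tfrc the 5 genes most like each, predicted genes only counted. Named outside this rule, after their values were seen, were Saa1, Socs3, Il6ra, the sex-biased genes, the genes most like Hamp2 and those flagged below for a closer look. A few genes that the rule would name are not reported here. Alternatives were DESeq2 1.42.0, limma-voom (limma 3.58.1), RLE scaling, total counts only, no filter, 1 CPM in 6 libraries, a replicate block and each library left out. Alternatives added later were transcript lengths and leaving out WT libraries 2 and 4.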

Additional observations from a re-analysis of the deposited data

Results flagged for a closer look

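For 5 of 112 combinations of gene and genotype, 1 library stood apart by Dixon's criterion, its distance from the next library as a part of the group's range. About 1 in 20, or 5.6, would be so by chance. Among the 10 iron genes this was Tfr2 in KO library 2, at 358 CPM beside 476 to 565 in the other 5 (distance over range 0.627). The others were genes of the lists. Jak2 was high in KO library 1, at 21.9 CPM beside 18.1 to 19.2 (0.674). The Kupffer cell gene Timd4 was low in KO library 2, at 0.890 CPM beside 2.71 to 4.01 (0.737). The endothelial gene Cdh5 was low in WT library 6, at 16.7 CPM beside 19.8 to 21.8 (0.631). The stellate gene Acta2 was high in KO library 6, at 13.5 CPM beside 1.32 to 3.17 (0.628).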

How the results depend on the processing

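Against 396 called genes, DESeq2 called 1210, total counts only 257, and the fit without WT libraries 2 and 4, added after the data were seen, 7. With 1 library left out the count ran from 25 to 700: 235 without KO library 2, 86 without KO 6, 46 without WT 2, 25 without WT 4, 89 without WT 5 and 700 without WT 6. Members called numbered 1 with DESeq2, Hamp2 at -2.20, and 0 to 1 with a library left out. Calls in the 7 iron lists numbered 10 with DESeq2, 2 with the replicate block (Clpx at 0.73 and Il6ra at -0.73, adjusted p = 0.0200 and 0.0281 by edgeR) and 0 to 3 with a library left out. With a library left out, log2 fold changes ran from -2.40 to -1.72 for Hamp2, -0.17 to 0.10 for Tfrc, -0.069 to 0.062 for Tfr2, -0.018 to 0.083 for Hfe and -0.083 to 0.035 for Trf, so the sign of the last 4 was not fixed. Tfrc was at 0.18 without WT libraries 2 and 4. List medians ran from -0.25 to -0.018 (acute phase) and -0.0092 to 0.088 (storage), and r from -0.084 to 0.43 (Hamp and Id1), -0.47 to 0.067 (Bmp6 and Id1) and -0.77 to -0.23 (Hamp and Hamp2, whose r was 0.0086 on deviations from group means, and -0.77 with an adjusted permutation p of 0.0281 without WT library 6). With principal transcript lengths Trf was at 5440, Fth1 at 880, Tfr2 at 160 and Slc40a1 at 46.3 CPM per kb. The cause was not tested for these changes. Same-numbered libraries had correlations of deviations from -0.23 to 0.43, 4 of 6 over 0.1, and 3 of 12 libraries were most like their own number, so the numbers do not pair them. The replicate block called 374 genes and none of the 10, with Hamp2 at -1.75. Another scaling moved the median of all genes by -0.0026 (RLE) and -0.014 (total counts only). With 6 libraries a group, many 1.5-fold changes could be missed.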

Other observations

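Beside the genes most like Hamp, those most like Hamp2 were taken by the same measure, after its values were seen. They included Cyp2a22, a cytochrome P450 (r = 0.93), Echdc3 (0.93), Vnn3 (0.93), and Acot4, a peroxisomal acyl-CoA thioesterase (0.93). Within WT the r of these 4 genes was between 0.95 and 0.97, and within KO between -0.28 and 0.68. The coefficient of variation of Hamp2 was 93.0% in WT and 33.3% in KO. Hamp2 was at 22.9 and 18.3 CPM in WT libraries 2 and 4 and at most 6.39 CPM in the other WT libraries. The r within WT thus leans on these 2 libraries, and r without them was not computed. Acot4 fell in KO, from a mean of 139 CPM in WT to 37.7 (log2 fold change -1.89 ± 0.34 SE, adjusted p = 0.0230 by edgeR's quasi-likelihood test). Cyp2a22 had -3.43 ± 0.90 (SE, adjusted p = 0.0651), and Echdc3 and Vnn3 had -0.27 and -0.38, with adjusted p of 0.103 and 0.188 by the same test.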
